A study of Drosophila melanogaster with 93 samples.

Results

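The subject is the *fruitless* gene (*fru*, FBgn0004652) of *Drosophila melanogaster* and the share of it that lay inside H3K9me3 peaks. *fru* is 1 of 18358 annotated genes and was chosen by name, for its place in the study, and not by any value measured here. It spans chr3R:18414273-18545586 of the dm6 genome on the minus strand, 131314 bp with 15 annotated transcripts. All 31 H3K9me3 peak lists were used, from 8 groups of 4 samples each except the 10–12 day *fru P1* females, which had 3. The groups were the *fru P1* neurons of each sex at 3 stages, 48hr after puparium formation (APF), 1 day after eclosion (1-day adults) and at 10–12 days of adult life, and the *elav* neurons of each sex in 1-day adults. Every fly was *w* and carried *P[UAS-Chromatag]* over *P[w+mC, UAS-Gal4]*, with 1 copy of either *fru P1-Gal4* or *elav-Gal4*. Chromatag is a histone H2B tagged with 3xFLAG, a biotin acceptor peptide and mCherry, expressed together with the biotin ligase BirA. Chromatin was immunoprecipitated for H3K9me3, and that of the Gal4-expressing cells was then taken out on streptavidin. *elav-Gal4* is expressed in neurons generally, so the *elav* samples also hold the *fru P1* neurons.

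Some limits of the design bear on every value. Whole pupae were used at 48hr APF and heads in adults, so stage and tissue cannot be told apart. The position of *fru P1-Gal4* is not given in the sources used here, and peaks of a chromosome with and one without the driver cannot be told apart. The sequencing depth differed with cell type, with 2295291 to 3012794 tags in the *elav* libraries and 2119672 to 6306013 over all 31. The inputs had from 9951738 tags in *elav* samples to 55285173 in *fru P1* samples, so cell type, depth and input cannot be told apart. The *fru P1* libraries of a sex and stage shared a pooled input, whose noise cannot be told apart from stage or sex. Each library had 18036 to 28267 peaks, and 20.5 to 34.98% of the autosomes lay inside them. That autosomal share moved with the groups, averaging 24.7% at 48hr APF, 31.8% in 1-day *fru P1* adults, 24.2% at 10–12 days and 25.2% in *elav* neurons, and its part in the results was not tested beyond the values given with and without it.

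H3K9me3 is a histone mark of heterochromatin, bound by HP1 and known for the silencing of repeats and of some genes. *fru* encodes transcription factors with a BTB domain and alternative zinc fingers. Transcripts from P1, the promoter farthest from the common exons, are spliced differently in the sexes: Tra and Tra2 direct a female splice from a cluster of short repeats, and male P1 transcripts give FruM, which builds the circuit for male courtship. Transcripts from the other promoters are not spliced by sex and serve development in both.

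The 15 transcripts began at 7 start sites when starts within 500 bp of each other were joined. P1 is at position 18545586 and serves 8 transcripts. The others are numbered here by their distance from it. TSS2 is at 18506562, 39.0 kb downstream of P1, and TSS7 at 18438771 is the last before the exons common to all transcripts. The coding exons are 14, make up 5262 bp or 4.01% of the locus, and 4 of them are in all 15 transcripts. The promoters of P1 and TSS2 are printed because the coverage of these starts differed most between stages. Each runs from 100 bases before the start to 10 after it, on the strand of the gene, from the RefSeq release 6 genome. Capitals mark TCAGT, the core sequence of the initiator element, wherever in the window it occurs.
P1: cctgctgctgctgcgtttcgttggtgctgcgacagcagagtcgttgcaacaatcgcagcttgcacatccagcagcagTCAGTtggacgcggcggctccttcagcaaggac
TSS2: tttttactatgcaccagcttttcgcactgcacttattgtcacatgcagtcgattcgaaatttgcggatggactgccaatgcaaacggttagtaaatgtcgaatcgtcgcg
P1 has a GC content of 60.0% and TSS2 of 44.5%, against a median of 40.9% over 13945 promoters of protein-coding genes. TCAGT was searched on both strands and found in 3 of the 7 *fru* promoters and in 30.2% of all of them. Relative to the start it lay at −23 in P1, −68 in TSS5 and −59 in TSS6. These matches are therefore upstream of the start, and do not mark an initiator at it. GAGAG, bound by the GAGA factor, was in 0 of 7 against 14.1%, and TATAAA, the TATA box, in 0 of 7 against 20.8%.

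The repeats through which Tra and Tra2 act lie in the second exon of the P1 transcripts. That exon has a short form that begins its coding part at 18515332 and a long form that runs on through chr3R:18513451-18515051, 1601 bp that are retained by the splice used in females. The 13-base repeat was searched with A or T allowed at the third and the fourth base, and had 2 matches in the whole locus, both in this stretch and on the strand of the gene. Capitals mark the whole repeat.
repeat 1: TCATCAATCAACA
repeat 2: TCTTCAATCAACA
Repeat 1 is at chr3R:18513675-18513687 and lay inside a peak in 11 of 31 libraries. Repeat 2 is at chr3R:18513640-18513652 and lay inside a peak in 13. The repeats lie close enough for a single peak to cover both.

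The peaks over *fru* were many and weak. Each library had 28 to 53 of them (median 35), 1104 in all. The median enrichment over input of the peaks in *fru* was 1.43 to 1.76-fold depending on the library, against 1.43 to 1.72-fold for all peaks of the library. No peak in *fru* had a q-value below 0.05 in any library (the smallest was 0.115), and 80 of the 1104 had a −log10 p of at least 2. The longest was 15497 bp, in a 1-day *fru P1* male library. The peak with the highest fold enrichment was in a male *elav* library, 2.37-fold over 248 bp at chr3R:18528940-18529187, 16.5 kb from P1. In *elav* females the highest was 2.25-fold at 17.9 kb from P1, in 48hr APF females 2.002-fold at 30.4 kb, over the coding part of the second P1 exon, and in 10–12 day males 2.27-fold at 44.1 kb. The strongest peaks of the other groups were elsewhere, 13.5 to 101.6 kb from P1. Because each value below is a share of bases inside peaks called at a lenient threshold, it measures where weak enrichment was called and not how strong it was.

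Over the locus as a whole, H3K9me3 peaks covered 39.8% ± 7.23 of *fru* (SD, n = 31 libraries). Among 1-day *fru P1* males the values were 51.4, 53.2, 42.2 and 46.7% (mean 48.4% ± 4.93), and among 1-day females 47.1, 44.3, 47.5 and 42.7% (45.4% ± 2.29). These were the highest among the *fru P1* groups, and the sexes overlapped. At 48hr APF males had 45.6, 42.9, 33.0 and 44.7% (41.6% ± 5.82) and females 35.9, 33.5, 34.5 and 30.6% (33.6% ± 2.23). At 10–12 days males had 32.5, 26.3, 32.1 and 34.8% (31.4% ± 3.63) and the 3 females 34.8, 31.5 and 30.5% (32.3% ± 2.24). All 7 of the oldest libraries lay below all 8 of the 1-day libraries. The *elav* males had 49.96, 48.6, 40.3 and 46.3% (46.3% ± 4.30) and the *elav* females 33.1, 37.2, 41.0 and 38.9% (37.6% ± 3.36).

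**Figure D1:**
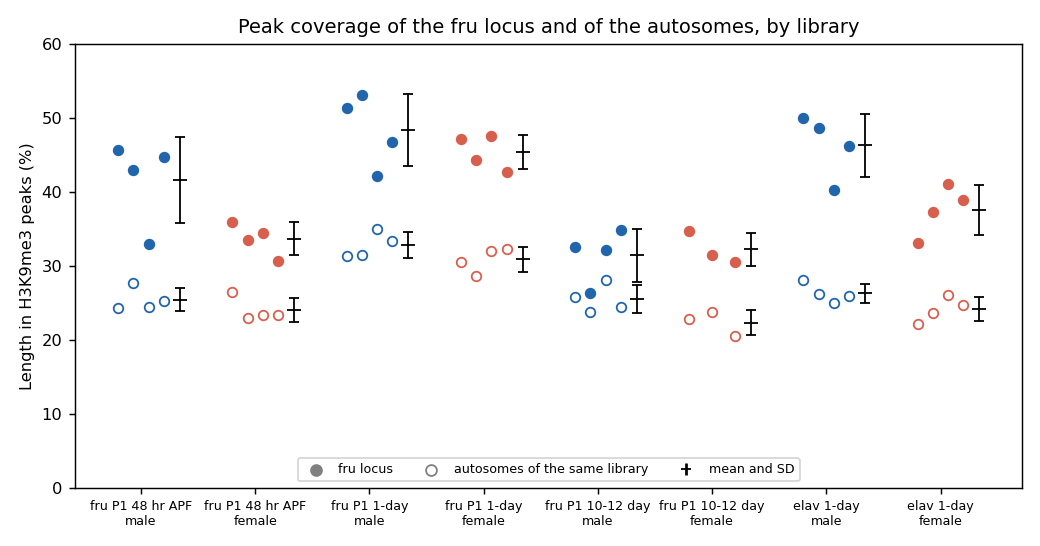
Percent of the *fru* locus inside H3K9me3 peaks (filled circles, y axis) in each of the 31 libraries by group (x axis), with the percent of the autosomes in the same library as open circles, males in blue and females in red, and bars for the mean and SD. *fru* lies above the autosomes in all 31 libraries, by 2.56 to 22.4 percentage points, and the 1-day *fru P1* means are the highest of the 3 *fru P1* stages, with single libraries of 48hr APF males inside their range.

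The locus was more covered than most genes. Its mean over the 31 libraries exceeded that of 85.2% of 2932 autosomal genes of at least 5 kb, and of 90.9% of the 241 genes of at least 50 kb. By condition it was above 85.8% of the genes of at least 5 kb at 48hr APF, 78.4% in 1-day *fru P1* adults, 74.6% at 10–12 days and 84.8% in *elav* neurons. In *elav* neurons the typical gene had 16.1% of its bases inside peaks, against 28.3% in *fru P1* neurons of the same age, while *fru* had 41.9 and 46.9%.

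From 1-day to 10–12 day adults, H3K9me3 coverage of *fru* in *fru P1* neurons fell by 15.1 percentage points (two-sided exact permutation test within sex, 7 and 8 libraries, p = 0.0004, adjusted p = 0.0020 over the 5 comparisons). It fell in both sexes, and the stages did not overlap in either, which was also so, in this direction, for 12.3% of 2920 genes in males and 19.6% in females. In limma fitted over those genes the estimate for *fru* was −15.1 ± 2.88 (SE, adjusted p = 0.00038), and 23.8% of the genes passed as lower. The fall passed the exact permutation test under all 5 other settings tried, at −22.1 to −5.29 points. Relative to the autosomal share of the same library it was −7.16 points (adjusted p = 0.027), which did not pass in limma (adjusted p = 0.057).

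Between 48hr APF and 1-day adults *fru* rose by 9.31 points (exact permutation test within sex, 8 and 8 libraries, p = 0.0020, adjusted p = 0.0051). The groups did not overlap in females, as for 13.9% of genes in that direction, and overlapped in males. limma gave 9.31 ± 2.76 (SE, adjusted p = 0.00998), with 25.4% of genes called higher and 9.76% lower. With the autosomal share subtracted the difference was 2.18 points and did not pass. From 48hr APF to 10–12 days the difference was −5.76 (exact permutation test, 7 and 8 libraries, p = 0.026, adjusted p = 0.030), a call that limma did not make (adjusted p = 0.213, 4.97% of genes lower and 4.08% higher). Without the male replicate 2 of 10–12 days it was −4.90, and relative to the autosomes −4.98, and neither passed.

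*elav* neurons had less of *fru* inside peaks than *fru P1* neurons of the same age, 41.9 against 46.9% (difference −4.98, exact permutation test within sex, 8 libraries each, p = 0.030, adjusted p = 0.030). In females the values did not overlap, as for 25.4% of genes, and in males they did. limma did not call it (adjusted p = 0.134), where 41.1% of genes were lower and 5.86% higher. Relative to the autosomal share *fru* was 1.63 points higher in *elav* neurons, and with peaks of at least 1.5-fold only it was 5.30 points higher. The call was lost without male replicate 3 of *elav* (−3.97) or male replicate 1 (−4.47) or 2 (−4.18) of 1-day *fru P1* adults.

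Male libraries had on average 4.68 points more of *fru* inside peaks than female libraries, 41.9 against 37.2% (permutation test within condition, 16 and 15 libraries, p = 0.0046, adjusted p = 0.0076). Males were higher in 3 of the 4 conditions and lower at 10–12 days. The autosomal share was also higher in males, 27.5 against 25.5%, and with it subtracted the difference was 2.51 and did not pass. The study called very few peaks on the male X, and X is in neither this share nor the limma fits. With peaks of a −log10 p of at least 2 only, it was −0.838. limma over all genes did not call *fru* (adjusted p = 0.411), and called 1 gene, 0.0342% of those tested, in each direction. By limma's interaction terms no change of the sex difference was called between stages, or between cell types in 1-day adults (adjusted p of 0.926 or more). Their SE was 5.53 to 5.75 points, so a change of a few points could not be seen. When the 12 comparisons within 1 sex or condition were tested singly, 0 passed by the exact permutation test, where 4 against 4 libraries cannot go below p = 0.0286 before adjustment and the smallest adjusted p was 0.0857.

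Along the gene, coverage was higher in its upstream part than over its 3′ end. The 109.8 kb from P1 to the common exons had 42.3% inside peaks and the 21.5 kb from the common exons to the 3′ end 27.1%, and the first was higher in 30 of 31 libraries. Of the 26 windows of 5 kb that lie mainly in *fru*, the highest means were 57.0% at 25.6 to 30.6 kb from P1, 52.4% at 20.6 to 25.6 kb and 52.3% at 55.6 to 60.6 kb. The lowest were 21.6% at 125.6 to 130.6 kb, in the 3′ part of the gene, 25.7% at 105.6 to 110.6 kb and 26.9% at 85.6 to 90.6 kb. The windows of *fru* averaged 40.1%, against 29.2% over all 20039 autosomal windows tested. Windows of higher GC content tended to have more coverage, with Pearson's r = 0.45 and Spearman's rho = 0.52 across the 26 windows of *fru* and r = 0.18 and rho = 0.17 across all autosomal windows. Adjacent windows share peaks and all windows share libraries, so these are descriptions only.

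**Figure D2:**
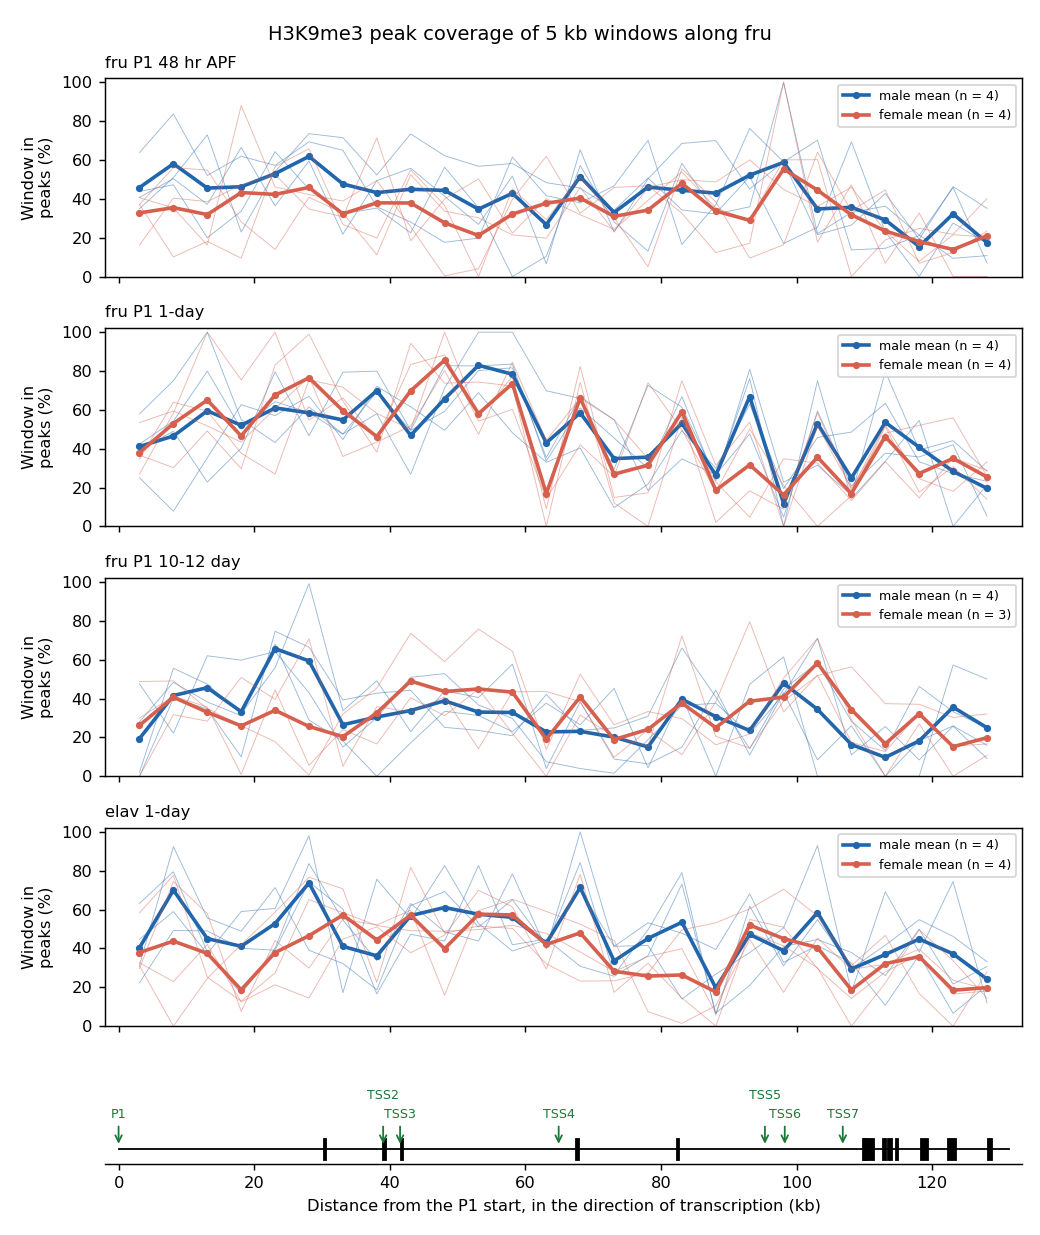
Percent of each 5 kb window inside H3K9me3 peaks (y axis) against distance from P1 in kb (x axis), 1 panel for each stage or cell type, with thin lines for libraries, thick lines for group means, males in blue and females in red, and the gene drawn beneath with coding exons in black and the 7 starts in green. Between 45.6 and 60.6 kb the 1-day *fru P1* means stand at 70.5 to 76.0%, and the window at 95.6 to 100.6 kb dips to 14.0% in the same panel.

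Single windows were called between the stages, none of which was called when only peaks of a −log10 p of at least 2 were used. Between 48hr APF and 1-day adults limma called 4 of 26 windows higher and 1 lower, 15.4 and 3.85%, both below the shares of all windows called, 19.1% higher and 4.99% lower. The largest gain was at 50.6 to 55.6 kb from P1, in an intron, which went from 27.9% to 70.5% (difference 42.6, adjusted p = 0.000615). There the 1-day males had 82.6, 100, 68.9 and 80.3% and females 54.2, 47.4, 56.3 and 74.3%, while at 48hr APF males had 56.8, 26.8, 35.4 and 19.8% and females 50.3, 4.00, 30.2 and 0%. The 1-day males lay above all 8 libraries at 48hr APF, whereas 3 of the 4 1-day females lay below the highest of these, male replicate 1. The windows on either side rose as well, from 37.5 to 76.0% at 55.6 to 60.6 kb (adjusted p = 0.0026) and from 36.0 to 75.6% at 45.6 to 50.6 kb (adjusted p = 0.000914). The last of the 4 was at 110.6 to 115.6 kb, over common exons, from 26.3 to 49.9% (adjusted p = 0.043).

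The window that went the other way holds TSS6, at 95.6 to 100.6 kb. It fell by 43.1 points, from 57.1 to 14.0% (limma, adjusted p = 0.0021). At 48hr APF males had 100, 59.1, 17.0 and 59.0% and females 60.1, 100, 44.9 and 16.3%. In 1-day adults males had 22.8, 0.1, 19.5 and 4.8% and females 21.1, 34.8, 0 and 8.9%. The stages overlapped through 1 low library of each sex at 48hr APF. At 10–12 days this window was back at 44.9% (30.3 points above 1-day adults, adjusted p = 0.038), and in *elav* neurons it was at 42.0% (27.97 above *fru P1* neurons, adjusted p = 0.049). The first of these calls was lost in 8 and the second in 24 of 31 refits without 1 library, and neither was made with windows of 2 or 10 kb. Within 500 bp of TSS6 itself none of these differences passed the exact permutation test. They were −14.6 for 1-day minus 48hr APF, 16.0 for 10–12 days minus 1-day and 35.7 by cell type (adjusted p of 0.854, 0.835 and 0.306).

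From 1-day to 10–12 days limma called 7 of 26 windows lower (26.9%, against 15.5% of all windows) and 1 higher, the window of TSS6 (3.85% against 4.3%). The 3 windows between 45.6 and 60.6 kb that had risen after 48hr APF were among those that fell, by 31.5 to 37.9 points. Since the same 1-day libraries enter both comparisons, the rise and the fall are not independent. The window over common exons at 110.6 to 115.6 kb fell by 36.7 points to 12.7% (adjusted p = 0.0054). The other 3 were at 30.6 to 35.6 kb, which holds most of the sex-specifically spliced stretch, at 35.6 to 40.6 kb, which holds TSS2, and at 65.6 to 70.6 kb (differences of −33.7, −26.5 and −30.4, adjusted p of 0.0079, 0.046 and 0.022). The stretch itself averaged 22.1% in 1-day *fru P1* adults and 17.0% at 10–12 days, so most of that window's fall lay outside it.

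Fewer windows differed in the remaining comparisons. Between 48hr APF and 10–12 days limma called 0 windows in either direction and 1 was below 0.05 unadjusted, while 2.41% of all windows were higher and 1.64% lower. Between *elav* and *fru P1* neurons it called 1 window higher, that of TSS6, and 1 lower, at 45.6 to 50.6 kb, which had 50.5 and 75.6% (adjusted p = 0.037, lost in 5 of 31 refits without 1 library). The share over all windows was 5.19% higher and 12.5% lower. By sex, 0 of 26 windows passed in limma and 0 were below 0.05 unadjusted, as 0% of all windows passed in either direction. Male means were higher in 25 of 26, but these windows share libraries and peaks, and the autosomal share was also higher in males. The share of all windows with a higher male mean is not given here, so that count is a description and not a result about *fru*.

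**Figure D3:**
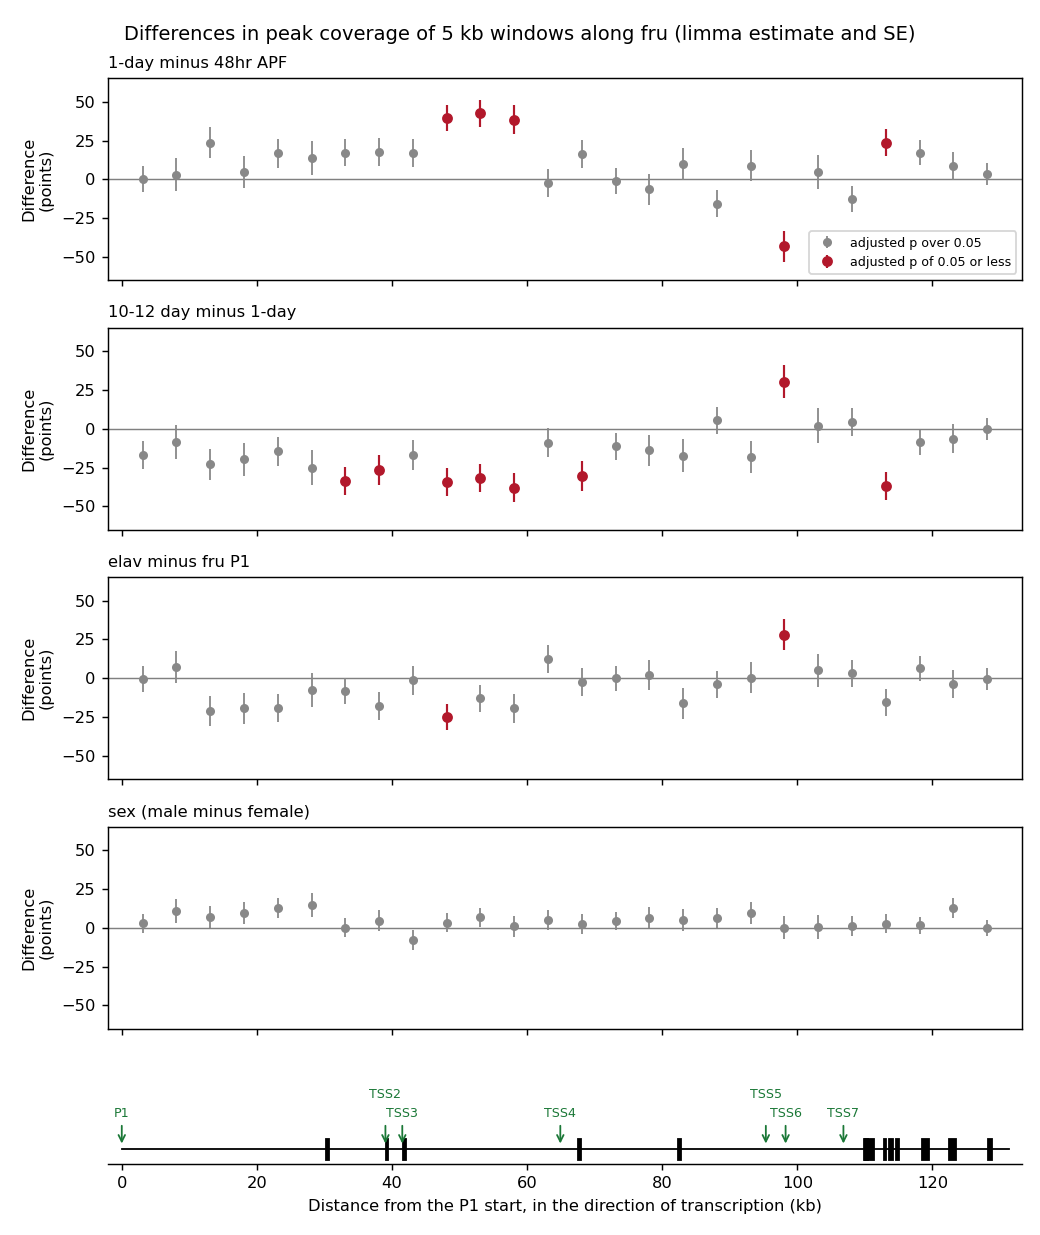
Difference in the percent of each 5 kb window inside peaks (y axis, limma estimate and SE in percentage points) against distance from P1 in kb (x axis), 1 panel for each of 4 comparisons, with red points for windows with an adjusted p of 0.05 or less. The window of TSS6 stands 43.1 points below 0 for 1-day minus 48hr APF, where the windows between 45.6 and 60.6 kb stand 38.5 to 42.6 above it.

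No base of *fru* lay inside a peak in all 31 libraries, and the most any base reached was 26. Within an age the overlap was closer. All 16 libraries of 1-day adults, *fru P1* and *elav*, covered an intronic stretch of 597 bp at chr3R:18490906-18491502, 54.4 kb from P1. It was wholly covered in 1 of 8 libraries at 48hr APF and 1 of 7 at 10–12 days, and touched by a peak in 3 and 4. Its GC content was 45.2% against 40.2% for the whole locus. The 8 libraries of 1-day *fru P1* adults shared a further 1680 bp of intron at chr3R:18495688-18497367, which was wholly covered in 0 of 8 *elav*, 0 of 8 48hr APF and 0 of 7 10–12 day libraries, but touched by a peak in 8, 6 and 7 of them. The middle of the first stretch is printed because it was the only sequence that every adult 1-day library shared, on the strand of the gene, chr3R:18491105-18491304, with no part set in capitals.
1-day stretch: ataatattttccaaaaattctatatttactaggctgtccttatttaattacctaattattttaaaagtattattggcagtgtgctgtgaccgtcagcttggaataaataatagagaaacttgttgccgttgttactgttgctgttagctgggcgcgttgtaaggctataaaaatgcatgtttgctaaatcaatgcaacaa
The 48hr APF libraries shared at most 367 bp in 1 run, in an intron 68.9 kb from P1. The 7 libraries of 10–12 days shared a run of 276 bp inside the last coding exon, chr3R:18416971-18417246, which was wholly covered in 5 of 8 1-day *fru P1* libraries, 3 of 8 at 48hr APF and 2 of 8 in *elav* neurons. Its GC content was 65.2%, and 200 bases of it, chr3R:18417009-18417208, are printed to show how it differs in composition from the 1-day intron.
10–12 day stretch: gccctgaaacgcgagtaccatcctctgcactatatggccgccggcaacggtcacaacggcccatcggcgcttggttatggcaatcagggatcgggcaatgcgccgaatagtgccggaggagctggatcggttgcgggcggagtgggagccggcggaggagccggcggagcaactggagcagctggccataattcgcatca
Conversely, 3258 bp of *fru*, 2.48% of the locus, lay outside peaks in every library, the longest run being 839 bp at 116 kb from P1, with a GC content of 31.9%. Finding such runs was part of the choice of what to describe, so no test was made on them.

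At the start sites, coverage was measured over the 500 bp on either side. Around P1, the promoter of the sex-specific transcripts, 4 of 8 libraries at 48hr APF had some coverage (mean 32.6%), 1 of 8 in 1-day *fru P1* adults (26.2%, male replicate 1), 6 of 7 at 10–12 days (mean 40.7%) and 0 of 8 in *elav* neurons. The 10–12 day males had 19.3, 0.7, 79.7 and 0% and the females 35.2, 96.1 and 38.4%. By these means P1 was the least covered in the conditions in which the locus as a whole was the most. The difference of 37.5 points between 10–12 day and 1-day adults had p = 0.0078 by the exact permutation test, and did not pass over the 35 tests of 7 starts and 5 comparisons (adjusted p = 0.129). The comparison of 1-day adults with 48hr APF, −29.3 points, did not pass either (adjusted p = 0.307).

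TSS2, 39.0 kb from P1, showed the reverse order. All 8 libraries of 1-day *fru P1* adults had 69.4 to 93.2% of its 1 kb inside peaks (mean 84.5%). At 10–12 days males had 66.1, 0, 0 and 77.3% and females 0, 0 and 0% (mean 17.9%). The fall by 66.5 points was the 1 of 35 tests at starts that passed (exact permutation test within sex, 7 and 8 libraries, p = 0.0008, adjusted p = 0.029), and it did not pass in 13 of the 15 refits without 1 of these libraries, with differences of −73.4 to −60.6. With peaks of a −log10 p of at least 2 only, the difference was 8.27. At 48hr APF males had 47.2, 91.4, 21.8 and 0% and females 85.8, 68.0, 0 and 0%, 45.2 points under 1-day adults (adjusted p = 0.129). In *elav* neurons TSS2 was all or none in males, 100, 0, 0 and 0%, and 46.4, 100, 95.5 and 100% in females. Of the other starts, TSS5 had the largest sex difference, 32.1 points higher in males, with an adjusted p of 0.191, and TSS7 was at 0 in 7 of 8 *elav* libraries.

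**Figure D4:**
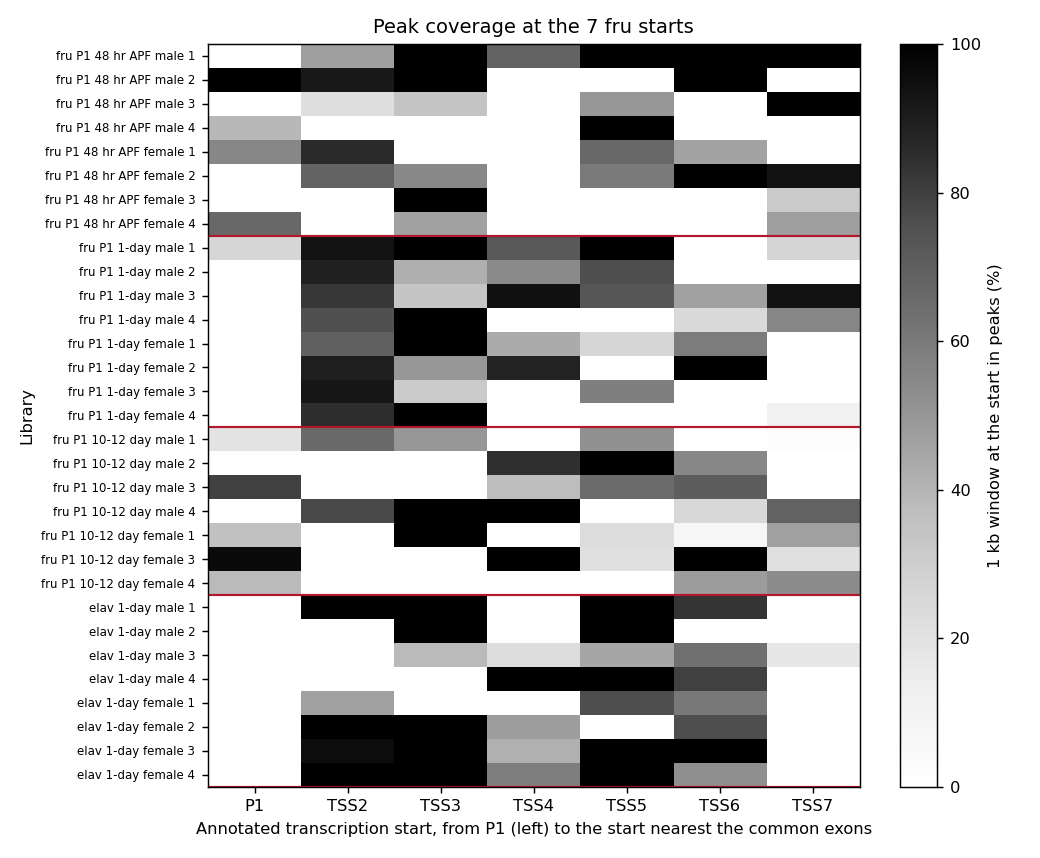
Percent of the 1 kb around each of the 7 start sites of *fru* (columns, P1 first) inside H3K9me3 peaks, in grey from 0 (white) to 100 (black), for the 31 libraries (rows by group). The P1 column is white in all 8 *elav* libraries and 7 of 8 1-day *fru P1* libraries, and the TSS2 column is dark in all 8 1-day *fru P1* libraries.

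The coding exons changed with stage more than the locus did in points. In 1-day *fru P1* adults males had 90.0, 41.0, 88.1 and 63.1% of coding bases inside peaks (mean 70.6% ± 23.2) and females 85.1, 56.4, 73.2 and 86.4% (75.3% ± 13.9). At 48hr APF males had 28.5, 72.1, 11.5 and 11.1% (30.8% ± 28.7) and females 61.4, 18.0, 15.8 and 48.0% (35.8% ± 22.5). In each sex a single 48hr APF library reached the range of the 1-day libraries. The rise was 39.6 points (exact permutation test within sex, 8 and 8 libraries, p = 0.0057, adjusted p = 0.029), and it did not pass without male replicate 1 or without male replicate 3 of the 1-day adults, or in 4 of the 5 other settings. The 1-day to 10–12 day difference was −27.3 (p = 0.012, adjusted p = 0.031 by the same exact test), and it did not pass without any of 7 libraries or under any other setting tried. At 10–12 days males had 36.8, 19.8, 47.1 and 60.0% and females 31.7, 55.9 and 63.5%.

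In *elav* neurons the coding exons were 65.5% ± 25.2 inside peaks in males (75.0, 87.3, 70.6 and 29.2%) and 42.7% ± 11.1 in females (30.6, 37.8, 46.1 and 56.3%). Their difference from *fru P1* neurons, −18.8 points, did not pass (exact permutation test, adjusted p = 0.140). The sexes differed by 0.929 points over all conditions (permutation test, adjusted p = 0.9002).

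Over all libraries together, coding bases were more often inside peaks than the rest of the locus, but not in every group. The difference within a library averaged 12.2 points (SD 22.9, n = 31) and was above 0 in 21 of 31 libraries (two-sided permutation test of the sign, p = 0.0063). The largest group means were those of the 1-day *fru P1* libraries, 31.1 in females and 23.1 in males, while at 48hr APF the mean was −11.2 in males, with 1 of 4 libraries above 0, and 2.28 in females, with 2 of 4. The difference did not pass in any of the 8 groups taken alone by the exact permutation of signs, where 4 libraries cannot give less than p = 0.125. With peaks of at least 1.5-fold enrichment only, the difference was −1.30 points and did not pass. By exon, the coding part of the second P1 exon was the most covered, 70.5% on average, followed by 2 of the alternative exons near the 3′ end that carry zinc fingers, the 12th at 63.2% and the 14th at 61.5%. The 8th coding exon, the longest of those common to all transcripts, had 35.3%, and the 15 bp of the 5th 12.9%.

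**Figure D5:**
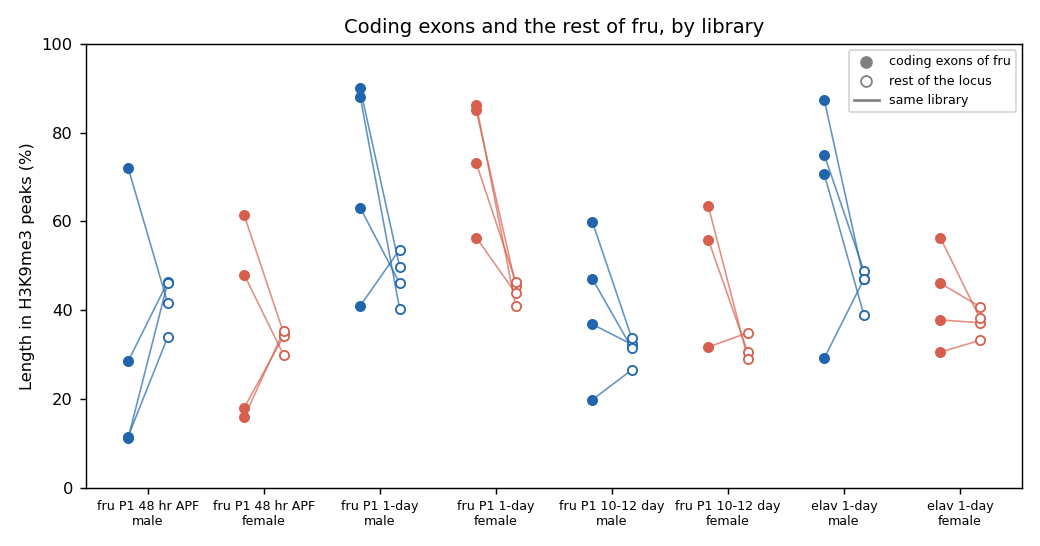
Percent of bases inside H3K9me3 peaks (y axis) for the coding exons of *fru* (filled circles) and the rest of the locus (open circles) in each library by group (x axis), males in blue and females in red, with a line joining both values of a library. Coding exons lie higher in 21 of 31 libraries, and in 1-day *fru P1* adults they reach 41.0 to 90.0%.

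At the boundary that sex-specific splicing uses, coverage stepped down within the same exon. The coding part of the short form of the second P1 exon had 70.5% inside peaks and the adjoining 1601 bp retained by the female splice 21.5%, with the first higher in 24 and equal in 2 of 31 libraries. The stretch was at 0 in 6 libraries. It averaged 6.92% at 48hr APF, 22.1% in 1-day *fru P1* adults, 17.0% at 10–12 days and 39.4% in *elav* neurons, and 19.1% in males and 24.1% in females. The step was seen in the means of both sexes, 75.7 against 19.1% in males and 65.1 against 24.1% in females. It was not regular in every group. The exon was higher in 2 of 4 *elav* female libraries (47.2 against 38.1%), 2 of 4 of 48hr APF males and 2 of 3 of 10–12 day females. In the other groups it was higher in 3 or 4 of 4 libraries. Both values are means of wide spread, with an SD of 39.8 points for the exon and 23.7 for the stretch, and they were compared only as a description.

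Other genes of sex determination, listed together with genes of partners of Fru (*bon*, *HDAC1* and the gene of HP1a), were compared by their whole length. Of 9 listed genes 3 were long enough for the fit, and *tra*, *tra2*, *ix*, *her*, *HDAC1* and the gene of HP1a were under 5 kb. The 3 were *dsx*, which with *fru* directs sexual differentiation downstream of *tra*, *dsf*, a nuclear receptor needed for courtship of both sexes, and *bon*, a cofactor that forms complexes with Fru. *dsf* went from 38.7% at 48hr APF to 69.7% in 1-day *fru P1* adults and 39.9% at 10–12 days (limma differences of 30.9 and −29.2, adjusted p of 2.7e-05 and 0.00015). *dsx* went from 30.98 to 47.4 and 34.3% (16.4 and −13.3, adjusted p of 0.0021 and 0.015). Both thus passed in the same directions as *fru*, 2 of 3 higher and then 2 of 3 lower, with medians of 16.4 and −13.3 against 3.61 and −3.75 over the 2920 genes, of which 25.4% were called higher from 48hr APF to 1-day adults (the first interval) and 23.8% lower from there to 10–12 days (the second). With the autosomal share subtracted, the stage differences of *dsf* still passed and those of *dsx* did not, and *bon* passed as lower between 48hr APF and 1-day adults (−10.6, adjusted p = 0.037).

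In *elav* neurons *dsx* was higher than in *fru P1* neurons, 62.1 against 47.4% (adjusted p = 0.0047), *bon* was lower, 6.64 against 21.5% (adjusted p = 0.0080), and *dsf* had 72.6 and 69.7% (adjusted p = 0.619). Of all genes, 5.86% were called higher and 41.1% lower in this comparison. With the autosomal share subtracted *dsx* still passed and *bon* did not (adjusted p = 0.140). By sex, 0 of the 3 passed by limma. Among 10 of 11 listed transcription factor genes that share the BTB domain of Fru, 1 rose between 48hr APF and 1-day adults, *ttk* (12.9, adjusted p = 0.037), and 2 fell, *psq* and *chinmo*. The shares of all genes called in that interval were 25.4% higher and 9.76% lower. *br*, on the X chromosome, was not in the autosomal fit. From 1-day to 10–12 days 3 fell, *bab1*, *bab2* and *ab*, and 1 rose, *Trl*, which encodes the GAGA factor, while 23.8% of all genes were called lower and 7.23% higher. From 48hr APF to 10–12 days *bab1* was called lower and *Trl* higher, 1 of 10 each, against 4.97% of all genes lower and 4.08% higher. In *elav* neurons 4 were lower than in *fru P1* neurons, *lola*, *psq*, *ab* and *mod(mdg4)*, and 0 higher, a share of lower calls close to the 41.1% of all genes. Their median differences were 2.85, 3.04 and −4.54, against 3.61, −3.75 and −10.4 over all genes. Relative to the autosomal share, the stage calls of *ttk*, *bab2* and *ab* and all 4 calls in *elav* neurons were lost, *lola* was called lower in the first interval (adjusted p = 0.027), and *lola*, *psq*, *chinmo* and *ken* were called higher in the second (differences of 11.7, 12.8, 12.7 and 23.7, adjusted p of 0.0018, 0.00058, 0.0093 and 0.0055). From 1-day to 10–12 days the BTB genes thus went from 3 lower and 1 higher to 1 lower and 5 higher with the scale. The autosomal share fell in this interval, so its subtraction raises the difference of every gene. The share of all genes called on that scale is not given here, for this or the other lists. The counts on it are therefore descriptions and not results about BTB genes.

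Of the 24 genes within 50 kb of *fru*, 0 overlapped it, their coverage averaged 7.01 to 64.8% over the 31 libraries (median 35.6%), and 6 were in the fit. Of these *qin*, a piRNA pathway gene, rose by 17.6 points between 48hr APF and 1-day adults (limma, adjusted p = 0.0056) and fell by 19.2 from there to 10–12 days (adjusted p = 0.0048). It was the 1 of 6 called higher in the first interval, against 25.4% of all genes. In the second it was the 1 of 6 called lower, against 23.8%. *fray*, which encodes a kinase, and CG7694 fell in the first interval, by 14.5 and 13.1 points. Both begin at 18573091 on the same strand and share most of their bases, so their calls are not independent. These 2 of 6 stand against 9.76% of all genes called lower in that interval. After subtraction of the autosomal share *qin* passed in neither interval (adjusted p of 0.063 and 0.062), while *fray* and CG7694 still fell in the first and were called higher in the second (17.6 and 16.6, adjusted p of 0.0016 and 0.0018). As for the BTB genes, no share of all genes stands beside the calls on this scale. In *elav* neurons CG31122 was the 1 of 6 lower than in *fru P1* neurons (−21.5, adjusted p = 0.028), against 41.1% of all genes. That call was lost relative to the autosomal share, where CG7694 was called higher (10.04, adjusted p = 0.049).

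The genes whose coverage, less the autosomal share of the library, ran most like that of *fru* across the 31 libraries, among 828 autosomal genes of at least 20 kb, were *dar1*, with a Spearman's rho of 0.70, *Drgx* (0.69), *kn* (0.62), *Ubx* (0.62) and *Abd-B* (0.60). All encode transcription factors, and 24 genes had a rho over 0.5. The points of 2 genes share their libraries and the depth of each. They were chosen for their likeness to *fru* in these libraries, so their stages are given as a description: *dar1* had 43.2% at 48hr APF, 66.8% in 1-day *fru P1* adults and 37.6% at 10–12 days, and *Ubx* had 44.9, 83.0 and 43.9%. In *elav* neurons *dar1* had 79.8% and *Ubx* 91.5%.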

How the data were processed

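H3K9me3 Chromatag ChIP-seq was analysed in 31 samples. Reads trimmed by the authors (Trimmomatic) were mapped to dm6 using Bowtie2 2.2.5, and broad peaks were called with MACS2 (2.1.1.20160309 in the file headers, 2.1.0 in the submitters' processing notes) against input, at p of 0.01 for strong and 0.1 for weak regions. The deposited lists give each peak's pileup signal, its −log10 p and −log10 q, and its fold ratio over input. The fragment length was 200 bp in 30 lists and 140 bp in 1. The *fru P1* inputs were pooled over the replicates of a sex and stage, and the *elav* inputs were of the same replicate.

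Here the lists were turned into the percent of bases inside peaks, over *fru*, its exons, the 500 bp on either side of its starts, 5 kb windows and genes of at least 5 kb. Windows and genes were kept if covered in at least 3 libraries. Gene models were those of Ensembl BDGP6, whose coordinates are those of dm6, and sequences those of RefSeq. Tests were two-sided permutation tests within sex or condition (exact, or 100000 resamples for sex), with Benjamini-Hochberg adjustment over 5 joined, 12 single or 35 start-site comparisons, and limma 3.58.1 in R 4.3.3 over windows and genes. The limma fit over genes relative to the autosomal share was added after the data were seen. The scripts were tested on simulated data. Samples with the same replicate number were not paired: their deviations had a mean correlation of −0.011 over 105 pairs. Replicates were separate samples per the labels, and the study describes them as independent biological replicates. It does not say whether they were separate cultures of flies, so p-values measure the spread between these samples. For *fru P1* neurons the p-values leave out the noise of the input that a group shared. The number of tags limits what could be called, and intervals for counting error cannot be given from peak lists. For 1-day *fru P1* females the deposited files number the replicates otherwise than the sample titles, which were used here. Named windows were those called by limma and the 3 highest and lowest, named peaks the strongest of each group, and named genes those of the lists that passed and the 5 most similar. The members and lists were chosen with earlier results of these data known. Peak lists for other marks were not analysed here.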

Additional observations from a re-analysis of the deposited data

Results flagged for a closer look

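In each group of 4 libraries a value far from the other 3 was looked for by Dixon's test, over 32 groups of values. Among normally distributed values chance alone marks about 1 in 20. That rate does not hold for start sites, whose coverage piles up at 0 and 100%. Where the others are all at 0, any other value is marked. It marked 4. Relative to the autosomal share, *fru* was 10.4 points above it in 1-day *fru P1* female replicate 4, against 15.6 to 16.6 in the others. P1 was 26.2% inside peaks in 1-day *fru P1* male replicate 1 and at 0 in the others. TSS2 was at 100% in *elav* male replicate 1 with the others at 0, and at 46.4% in *elav* female replicate 1 with the others at 95.5 to 100%.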

How the results depend on the processing

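Of 169 alternatives, 106 left a value in its direction and on its side of the threshold, 23 lost and 2 gained a call, 12 reversed and 26 moved a count. The cause was not tested. Below, the first interval is 1-day minus 48hr APF and the second 10–12 days minus 1-day. With peaks of a −log10 p of at least 2, the locus differed by −0.838 between the sexes, −0.618 between 10–12 days and 48hr APF and −3.73 between *elav* and *fru P1* neurons. Coding exons then differed by −7.09 between the sexes, 11.9 for the first interval, −14.1 for the second and −2.19 for 10–12 days minus 48hr APF, and TSS2 by −8.50 and 8.27 for the first and second interval. With peaks of at least 1.5-fold, *elav* minus *fru P1* was 5.30 for the locus and 7.01 for coding exons, the second interval was −24.8 for coding exons and −35.9 for TSS2, and coding minus other bases was −1.30. With the 15000 strongest peaks of each library the locus gave 1.21 by sex, 7.42 for the first interval and −1.88 by cell type, coding exons −4.88, 28.6 and −23.9 by sex and for both intervals, and TSS2 −47.6 for the second. Relative to the autosomal share the locus gave 2.51 by sex, 2.18 for 1-day minus 48hr APF, −4.98 for 10–12 days minus 48hr APF and 1.63 by cell type, coding exons −1.24 by sex and 32.5 and −19.4 for the intervals, P1 45.4 for the second interval, now called, and *fru* in limma 2.18 and −7.16 for the intervals and 1.63 by cell type. For the second interval TSS2 gave −77.2 within 250 bp and P1 29.2 within 1000 bp, the latter now called. With the replicate number as a block, coding exons gave 39.6 and −30.4 for the intervals and TSS2 −65.7 for the second, none of them past the threshold, and no other call changed with it. Of the 35 start-site comparisons, 0 passed with stronger peaks by p, by fold or by rank, within 250 bp or with the block, and 2 relative to the autosomes or within 1000 bp, against 1.

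Windows called changed as follows. With peaks of a −log10 p of at least 2 limma called 0 in every comparison. With 2 kb windows it called 2 lower in the first interval, 0 higher in the second, 1 lower for 10–12 days minus 48hr APF and 0 either way by cell type. With 10 kb windows it called 0 higher in the second interval, and 0 higher and 2 lower by cell type. Without the filter it called 0 higher in the second interval and by cell type. Relative to the autosomes it called 2 lower in the first interval, 4 lower in the second and 0 lower by cell type. No peak in *fru* passed a q of 0.05, so that setting gave no value.

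Leaving out each library in turn, 89 of 651 values changed their call or direction. The locus ranged from −7.18 to −4.90 for 10–12 days minus 48hr APF and from −6.01 to −3.97 by cell type. Coding exons ranged from −2.51 to 3.95 by sex, 36.3 to 46.5 and −32.2 to −22.6 for the intervals and −23.7 to −12.8 by cell type, which passed without 1-day *fru P1* male replicate 2. TSS2 ranged for the intervals from 38.5 to 53.7, past the threshold without 48hr APF male replicate 2, and from −73.4 to −60.6. The start-site comparisons called were 0 to 2, windows higher in the second interval 0 to 1, and windows higher and lower by cell type 0 to 1 each.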
